A study of Mus musculus with 9 samples.

Results

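The 9 genes described here are components and regulators of complement, C3, C4b, C2, Cfb, C1ra, Serping1, Cd55 and Cd59a, and the receptor gene C3ar1, which in brain is mainly expressed by microglia; they are 9 of the 25239 genes in the deposited table. They were chosen by name, with the chains of C1q left out, at a time when the values of all 3 groups were known, so their levels and differences are given as a description and carry no test. The libraries came from primary astrocytes grown from the cerebral cortex of mouse pups at postnatal day 4, in a medium with horse serum and fetal bovine serum. The 3 control libraries came from cells without hydrogen peroxide. The 3 day 1 libraries came from cells given 200 µM hydrogen peroxide, an oxidant, for 3 h, washed and harvested 24 h later. The 3 day 3 libraries came from cells given the same exposure and harvested 72 h after washing. The labels used here give no strain, sex or genotype and no harvest time for the controls, and they do not say whether the libraries of a group came from separate cultures, so the spread between them may be technical.

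Complement is a set of blood and tissue proteins that cut one another in sequence on a surface. In the classical pathway C1q recognises the surface, the proteases C1r and C1s cut C4 and C2, and the resulting convertase cuts C3; in the alternative pathway factor B (Cfb) makes a second convertase with C3 itself. C1 inhibitor (Serping1) blocks C1r and C1s, Cd55 breaks up the convertases, Cd59a blocks the membrane pore at the end of the cascade, and C3ar1 is the receptor for the C3a fragment. In the brain, astrocytes make much of the C3 and C4, microglia make C1q and carry complement receptors, and complement deposited on synapses marks them for removal by microglia.

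RefSeq promoter sequences (build GRCm38.p6) were found for 5 of the 9 genes: C3, C1ra, C3ar1, Cd55 and Cd59a. Those of 4 are shown, each the 250 bases before the start, 5′ to 3′ on the gene's own strand: C3 because it had the largest difference, C1ra and C3ar1 because they were lower on day 1 and overlapped the controls on day 3, and Cd55 because it was higher on both days. Capitals mark matches to the motifs named after them.
C3, chr17:57228137-57228386, minus strand: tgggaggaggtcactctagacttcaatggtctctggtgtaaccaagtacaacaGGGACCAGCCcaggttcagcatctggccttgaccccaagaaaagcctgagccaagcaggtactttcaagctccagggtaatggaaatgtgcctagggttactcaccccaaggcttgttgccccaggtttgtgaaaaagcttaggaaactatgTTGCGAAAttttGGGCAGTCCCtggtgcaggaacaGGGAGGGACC
C1ra, chr6:124512371-124512620, plus strand: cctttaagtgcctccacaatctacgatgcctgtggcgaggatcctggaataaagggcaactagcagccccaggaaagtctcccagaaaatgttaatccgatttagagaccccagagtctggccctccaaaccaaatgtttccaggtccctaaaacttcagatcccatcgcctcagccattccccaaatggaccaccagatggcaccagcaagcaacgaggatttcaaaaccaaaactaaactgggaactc
C3ar1, chr6:122856158-122856407, minus strand: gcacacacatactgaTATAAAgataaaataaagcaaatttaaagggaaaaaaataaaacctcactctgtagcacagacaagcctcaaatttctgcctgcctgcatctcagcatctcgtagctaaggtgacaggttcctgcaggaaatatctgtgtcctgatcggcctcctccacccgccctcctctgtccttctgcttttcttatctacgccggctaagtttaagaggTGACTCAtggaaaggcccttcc
Cd55, chr1:130462745-130462994, minus strand: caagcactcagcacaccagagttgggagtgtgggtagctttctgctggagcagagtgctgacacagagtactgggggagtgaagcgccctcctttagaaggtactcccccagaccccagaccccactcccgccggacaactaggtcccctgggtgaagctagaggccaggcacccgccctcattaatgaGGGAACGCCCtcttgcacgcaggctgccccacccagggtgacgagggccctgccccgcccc

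Motifs were searched as letters on both strands, and the same search was run on all 32851 promoters of that length. The NF-kappaB letters, GGGA and CC with any 4 bases between them, were found in the C3 promoter 3 times, at 197 to 188, 33 to 24 and 10 to 1 bases before the start, and in the Cd55 promoter at 61 to 52 bases before it. Of all promoters, 17.6% held them. The C/EBP letters TTNNGCAA, present in 9.56% of promoters, were found in that of C3 alone among the 5, at 45 to 38 bases before the start. C3ar1 had the AP-1 letters TGANTCA at 22 to 16 bases before its start (6.75% of promoters) and the TATA box letters TATAAA at 235 to 230 bases (12.4%). The interferon regulatory factor letters, TTTC and TTTC with any 2 bases between them, in 2.98% of promoters, were found only in that of Cd59a among the 5, at 187 to 178 bases before its start. The STAT letters TTCNNNGAA, in 7.02% of promoters, were in none of the 5, and the C1ra window held no match to any of these motifs. No matches overlapped, and a match describes letters only. The starts used for Cd55 and Cd59a lie inside the annotated spans of these genes, which begin further upstream.

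Levels are in FPKM, read fragments set against gene length and sequencing depth, which allows genes to be compared. C3 and C4b were the most abundant of the 9 in the controls, with means of 87.8 and 84.2 FPKM, above 97.8% and 97.7% of all genes listed, and their ranges overlapped. Serping1 followed at 35.6 FPKM, then Cd59a at 10.9, C1ra at 6.62 and C3ar1 at 6.33 with overlapping ranges, Cfb at 1.70, Cd55 at 1.13 and C2 at 0.739. On day 1 the order was different. C4b came first at 27.6 FPKM, and C3 (13.0), Cd59a (11.5) and Serping1 (11.5) overlapped in that order behind it. Cd55, at 1.65 FPKM, then stood above Cfb, at 1.32 FPKM, without overlap. On day 3 C4b (74.4 FPKM) and C3 (73.7 FPKM) overlapped at the top again, Serping1 followed at 35.3 FPKM, and Cfb and Cd55 overlapped. C2 was the lowest in each group.

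**Figure D1:**
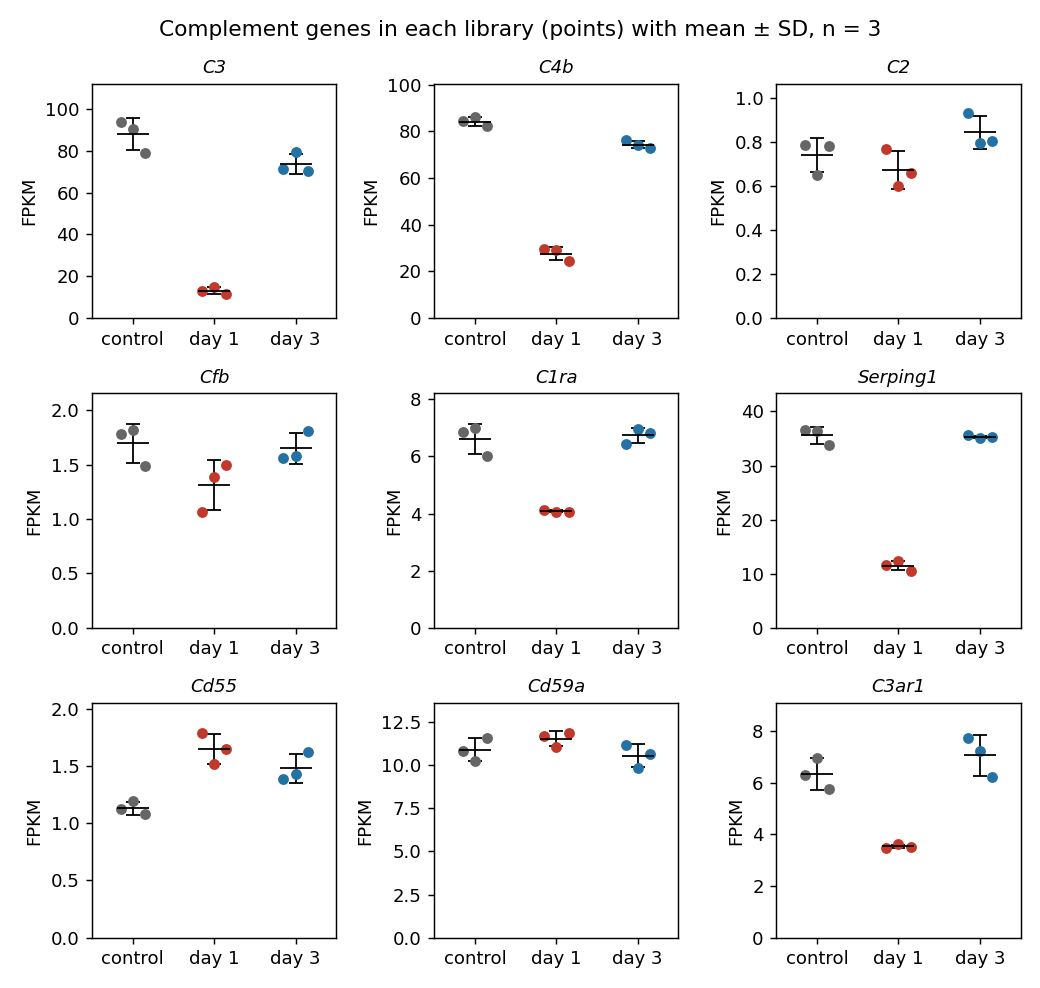
FPKM (vertical axis, from 0, a scale of its own for each gene) of the 9 complement genes in the control, day 1 and day 3 libraries; points are libraries, bars are the mean and SD of 3. C3 sits at 79.2 to 93.7 in the controls, at 11.5 to 14.8 on day 1 and at 70.6 to 79.3 on day 3, while Cd59a stays between 9.83 and 11.9 throughout.

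C3, the protein on which the pathways converge, stood at 93.7, 90.7 and 79.2 FPKM in the controls, at 12.9, 14.8 and 11.5 on day 1 and at 71.2, 79.3 and 70.6 on day 3. All day 1 libraries lay far below all others, and the day 3 range reached just into that of the controls. The fold difference, taken on a scale of log2(FPKM + 0.1), was 6.57-fold lower on day 1 than in the controls (95% interval 5.73 to 7.54), which left 15.2% of the control level and ranked 9 among the falls of the 12611 genes tested, those that averaged 1 FPKM or more. On day 3 it was 1.18-fold lower than in the controls (1.03 to 1.35), at 84.9% of their level, and 5.58-fold higher than on day 1 (4.86 to 6.40). Between 1356 and 17899 reads stood behind each value. In bulk RNA, fewer cells of a type and less RNA per cell cannot be told apart, here and in all that follows. C3 lies at chr17:57203967-57228136 on the minus strand.

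C4b, mouse C4, supplies the anchor of the classical convertase, and its levels were 84.3, 86.2 and 82.2 FPKM in the controls, 29.5, 29.0 and 24.5 on day 1 and 76.2, 74.0 and 73.0 on day 3. The 3 groups did not overlap: day 1 was lowest and day 3 stood just under the controls. The level on day 1 was 2.98-fold lower than in the controls (95% interval 2.74 to 3.24), and on day 3 it was 1.12-fold lower (1.03 to 1.22) and 2.66-fold above day 1 (2.45 to 2.90). C3 was at 1.04 ± 0.0744 times the level of C4b in the controls (SD, n = 3), at 0.471 ± 0.0368 on day 1 and at 0.991 ± 0.0713 on day 3, so the transcript of C3 was reduced more than that of C4b at 24 h. The near-identical copy C4a had a mean of only 0.459 FPKM over the 9 libraries, with 41 to 113 reads in a library against 3038 to 17863 for C4b. The sources used here do not say how reads shared by both copies were counted.

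C1ra encodes the protease C1r, and its levels were 6.85, 6.98 and 6.02 FPKM in the controls, 4.13, 4.07 and 4.06 on day 1 and 6.44, 6.96 and 6.82 on day 3. Day 1 lay below the other groups, which overlapped. The difference was 1.57-fold lower on day 1 (95% interval 1.42 to 1.73), and on day 3 the level was 1.03-fold higher than in the controls (0.935 to 1.14) and 1.62-fold higher than on day 1 (1.47 to 1.78). C1s1, which encodes the partner protease C1s and was not among the 9, fell 1.50-fold on day 1 (1.38 to 1.63, limma adjusted p = 6.2e-06), and the C1s1 to C1ra ratio was 1.55 ± 0.12 in the controls, 1.62 ± 0.146 on day 1 and 1.61 ± 0.0928 on day 3. The 3 ranges of that ratio overlapped. The copy C1rb had at most 4 reads in a library. C1ra lies at chr6:124512621-124523440 on the plus strand.

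C2 and Cfb encode the related proteases that cut C3 in the classical and the alternative convertase, and both were scarce. Cfb stood at 1.78, 1.82 and 1.49 FPKM in the controls, at 1.06, 1.39 and 1.50 on day 1 and at 1.56, 1.58 and 1.81 on day 3, from 69 to 192 reads. The day 1 libraries scattered and one reached the control range. The estimate was 1.25-fold lower on day 1 (95% interval 1.01 to 1.54), 1.01-fold lower on day 3 (0.821 to 1.25, where an interval that spans 1 includes no difference) and 1.23-fold higher on day 3 than on day 1 (0.999 to 1.52). C2 stood at 0.787, 0.650 and 0.780 FPKM in the controls, at 0.767, 0.598 and 0.657 on day 1 and at 0.929, 0.795 and 0.803 on day 3, from 40 to 78 reads. Its mean of 0.752 FPKM over the 9 libraries was under the minimum of 1, so it was fitted only at a minimum of 0.3, where day 1 was 1.06-fold lower (0.856 to 1.31) and day 3 was 1.14-fold higher (0.918 to 1.41). All day 3 libraries of C2 lay above all controls by a small margin. The ratio of C3 to Cfb was 51.9 ± 1.77 in the controls, 10.1 ± 2.28 on day 1 and 44.9 ± 5.65 on day 3, without overlap between day 1 and the others.

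Serping1, the inhibitor of C1r and C1s, was at 36.7, 36.3 and 33.7 FPKM in the controls, at 11.6, 12.3 and 10.6 on day 1 and at 35.6, 35.1 and 35.3 on day 3. The day 3 libraries were within the control range and the day 1 libraries were far below it. The level was 3.01-fold lower on day 1 (95% interval 2.79 to 3.24), 1.00-fold of the control on day 3 (0.932 to 1.08) and 3.02-fold higher on day 3 than on day 1 (2.80 to 3.26). Set against its target protease, the Serping1 to C1ra ratio was 5.38 ± 0.199 in the controls, 2.82 ± 0.207 on day 1 and 5.25 ± 0.247 on day 3 (SD, n = 3). The Serping1 to C1s1 ratio was likewise 3.49 ± 0.141, 1.74 ± 0.169 and 3.26 ± 0.0534. In both ratios the day 1 libraries lay apart from the rest, with less inhibitor transcript for each protease transcript. The ratio of C4b to Serping1 was 2.37 ± 0.0689 in the controls and 2.40 ± 0.119 on day 1, with overlap, and 2.11 ± 0.0365 on day 3, below all libraries of the other groups. Serping1 lies at chr2:84765360-84775444 on the minus strand.

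Cd55, the membrane protein that breaks up convertases, was the member that was higher on both days. It stood at 1.12, 1.19 and 1.08 FPKM in the controls, at 1.78, 1.52 and 1.64 on day 1 and at 1.38, 1.43 and 1.62 on day 3, from 86 to 151 reads. Both treated groups lay above all controls, and they overlapped each other. The level was 1.45-fold higher on day 1 (95% interval 1.23 to 1.70), 1.30-fold higher on day 3 (1.10 to 1.52) and 1.12-fold lower on day 3 than on day 1 (0.953 to 1.31). The copy Cd55b was listed at 0 in all libraries.

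Cd59a, which blocks the membrane pore, stood at 10.8, 10.3 and 11.6 FPKM in the controls, at 11.7, 11.0 and 11.9 on day 1 and at 11.2, 9.83 and 10.6 on day 3. The 3 groups overlapped. The intervals bounded any difference closely: day 1 was 1.08-fold higher (95% interval 0.993 to 1.18), and day 3 was 1.02-fold lower than the controls (0.936 to 1.11) and 1.11-fold lower than day 1 (1.01 to 1.21). Its copy Cd59b, at a mean of 0.977 FPKM, had 7 to 37 reads in a library against 511 to 736 for Cd59a.

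C3ar1, the receptor for C3a, was at 6.32, 6.95 and 5.74 FPKM in the controls, at 3.48, 3.61 and 3.52 on day 1 and at 7.74, 7.23 and 6.20 on day 3. Day 1 stood below the other groups, which overlapped. The level was 1.73-fold lower on day 1 (95% interval 1.51 to 1.97), 1.12-fold higher on day 3 than in the controls (0.985 to 1.28) and 1.94-fold higher on day 3 than on day 1 (1.70 to 2.21).

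**Figure D2:**
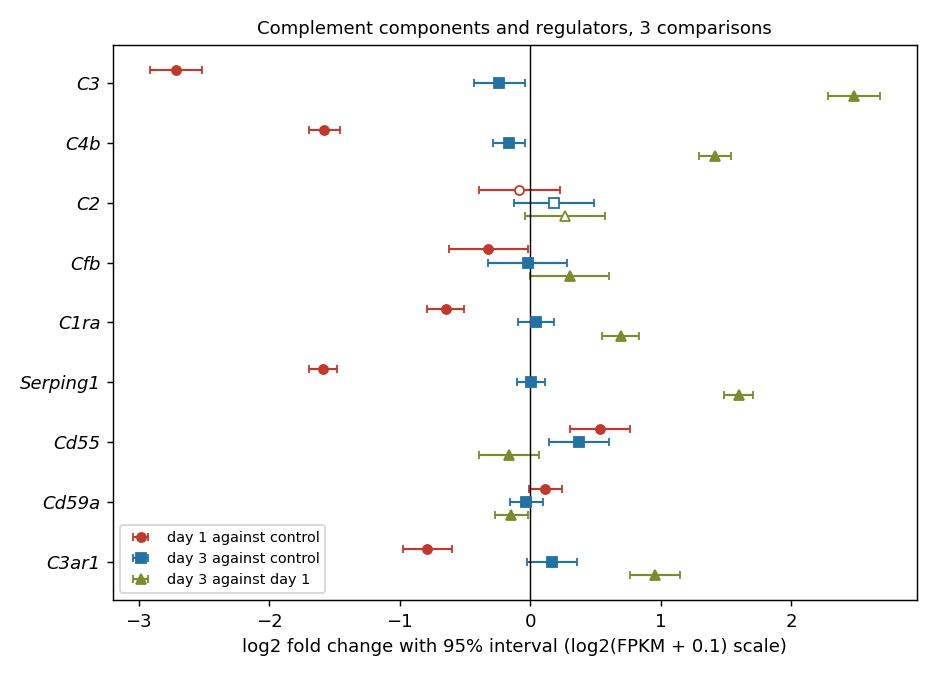
Log2 fold change of each complement gene with its 95% interval (horizontal axis) in 3 comparisons: day 1 against control (circles), day 3 against control (squares) and day 3 against day 1 (triangles); open symbols are C2, fitted at the lower minimum. On day 1 C3 lies furthest left at -2.72, Serping1 and C4b near -1.59 and -1.58 and Cd55 to the right at 0.54, while on day 3 against control Cd55 lies furthest from 0, at 0.37.

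Counted over the 8 genes that passed the minimum of 1 FPKM, 5 were lower and 1 was higher on day 1 at a limma adjusted p under 0.05, and 2 were not called. Of all 12611 genes, 62.2% were called in that comparison, 31.1% as lower and 31.1% as higher. With the groups fully apart there were likewise 5 lower and 1 higher, beside 37.3% and 28.8% of all genes (66.1% together). On day 3 against control 1 was higher, 0 lower and 7 not called (2 were lower at an unadjusted limma p under 0.05, and 2 were called lower by limma-voom on recovered reads), where 13.8% of all genes were called (7.37% higher, 6.45% lower), while 1 lay fully above the controls and 1 fully below, as did 12.5% and 17.8% of all genes (30.3% together). The 1 called on day 3 was Cd55, which was not called with the replicate block, with only the 6 libraries compared, with no filter or no rescaling, or without day 1 replicate 3 or any control or day 3 library. Between day 3 and day 1, which reuses the same libraries, 5 were higher and 1 lower, where 56.2% of all genes were called (27.9% higher, 28.4% lower), and 6 of the 8 lay fully higher and 0 fully lower, beside 33% and 28.9% of all genes (61.8% together). The 1 called lower there was Cd59a, which was not called with no filter, with no rescaling, or without control replicate 1, day 1 replicate 1 or 3, or day 3 replicate 2 or 3. The median log2 difference of the 8 was -0.72, -0.01 and 0.82 in these comparisons, with medians over all genes close to 0. Because the choice of the 9 used these groups, nothing is read from the counts.

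Other genes of the system came from lists by role, 49 genes outside the 9, of which 20 averaged 1 FPKM or more. These lists, too, were chosen with earlier results of these data known. On day 1 15 of the 20 were lower and 3 higher at a limma adjusted p under 0.05, with a median log2 difference of -0.57. This is to be read beside the 62.2% of all genes called (31.1% lower, 31.1% higher). On day 3 1 of the 20 was lower and 1 was higher than in the controls. That comparison called 13.8% of all genes (6.45% lower, 7.37% higher). Between day 3 and day 1 15 were higher and 4 lower, with a median of 0.57, where 56.2% of all genes were called (27.9% higher, 28.4% lower).

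Among the genes that start the cascade, Masp1, a protease of the lectin pathway, went the other way from C1ra and C1s1. It rose from 3.33 ± 0.159 to 7.40 ± 0.696 FPKM on day 1 (SD, n = 3), 2.23-fold (95% interval 2.00 to 2.49, limma adjusted p = 3.0e-07). On day 3 Masp1 was at 3.83 ± 0.0800 FPKM, 1.16-fold above the controls (1.04 to 1.30). It was not called there, though all day 3 libraries lay above all controls. C1rl, a relative of C1r, fell 1.33-fold on day 1 (limma adjusted p = 0.0098). Colec12, a scavenger receptor of the collectin family, fell 1.19-fold on day 1 (limma adjusted p = 0.00057) and rose 1.16-fold above the controls on day 3 (limma adjusted p = 0.0088). C1qa, C1qb and C1qc, the chains of C1q, fell 3.09-, 3.02- and 3.06-fold on day 1, and on day 3 0 of the 3 was called against the controls, with 0 at an unadjusted limma p under 0.05 and 0 called by limma-voom. Their sum was 167 to 181 FPKM in the controls, 51.5 to 57.2 on day 1 and 131 to 176 on day 3.

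Of the genes of the alternative and terminal pathways, Cfp, which encodes properdin, the stabiliser of the alternative convertase, fell 1.47-fold on day 1 (limma adjusted p = 0.00032). Hc, which encodes C5, fell 1.49-fold (limma adjusted p = 0.00040). C8g, which encodes the gamma chain of C8, at 2.13 ± 0.198 FPKM in the controls and 1.86 ± 0.288 on day 1, was not called there.

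Of the fluid-phase regulators, Clu and Vtn were both lower on day 1. Clu, which encodes clusterin, a secreted chaperone that binds the terminal complex, fell from 789 ± 18.7 to 374 ± 16.2 FPKM on day 1, 2.06-fold, and at 664 ± 18.9 FPKM was still 1.17-fold below the controls on day 3 (limma adjusted p = 0.0021). Vtn, which encodes vitronectin, fell 4.33-fold on day 1 (2.95 to 6.35, limma adjusted p = 3.1e-05) from 2.58 ± 0.340 FPKM. On day 3 Vtn was at 1.74 ± 0.254 FPKM, 1.44-fold below the controls (0.983 to 2.11). It was not called there, though all day 3 libraries lay below all controls.

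Regulators on the membrane did not share one direction. Cr1l, the mouse regulator Crry, rose 1.28-fold on day 1 (limma adjusted p = 0.00016), in the direction of Cd55, and was at 12.9 ± 0.197 FPKM on day 3 beside 12.8 ± 0.232 in the controls. Csmd1 and Csmd2 fell 1.41-fold and 1.35-fold on day 1, and Susd4 was not called on day 1 or on day 3. Among the receptors, C5ar1 fell 2.01-fold on day 1, and Itgam and Itgb2, the chains of complement receptor 3, fell 1.87-fold and 1.93-fold. C1qbp, a binding protein of C1q heads, rose 1.12-fold (limma adjusted p = 0.020) with overlapping groups. On day 3 against the controls 0 of these 4 was called, with 0 at an unadjusted limma p under 0.05 and 0 by limma-voom.

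**Figure D3:**
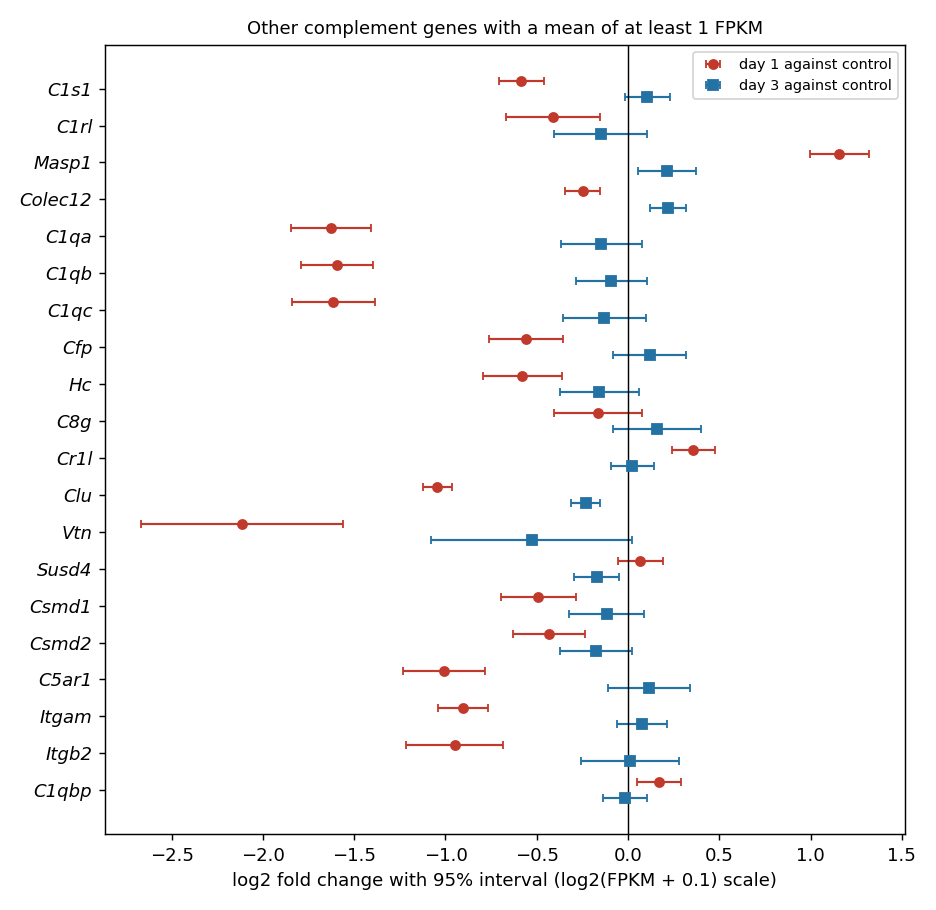
Log2 fold change with its 95% interval (horizontal axis) of the 20 other complement genes that averaged 1 FPKM or more, day 1 (circles) and day 3 (squares) against control, in order of role. On day 1 15 were called lower, Vtn furthest at -2.11, and Masp1 lies highest at 1.16. On day 3 Vtn, not called, lies furthest below 0 at -0.53, and Clu, called lower, is at -0.23.

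Several of the members lie close together on chromosome 17, in the class III part of the major histocompatibility complex: C4b at chr17:34728139-34743902, Cfb at chr17:34856374-34862514 and C2 at chr17:34862602-34882100, all on the minus strand, a stretch of 153962 bases, with C3 another 22.3 Mb away. The 4 tested genes between them, Stk19, Dxo, Skiv2l and Nelfe, and the 2 nearest on either side, Fkbpl, Atf6b, Zbtb12 and Ehmt2, were all lower on day 1, by 1.13-fold for Nelfe to 1.34-fold for Zbtb12, each at a limma adjusted p under 0.05. The difference of C4b, 2.98-fold, was larger than all of these, and that of Cfb, 1.25-fold, was within their range. On day 3 only Zbtb12 of the 8 was called against the controls, 1.15-fold lower. Of all genes, 31.1% were called lower on day 1, and 13.8% were called on day 3 (6.45% lower). Cfb ends 1 base from Nelfe, which runs on the other strand, and 87 bases from C2, and the sources used here do not say whether reads were assigned by strand.

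**Figure D4:**
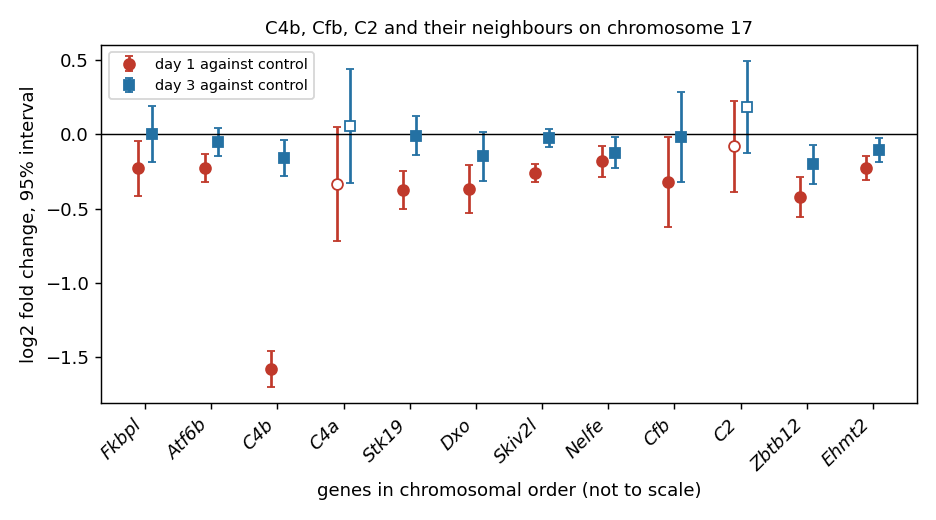
Log2 fold change with 95% interval (vertical axis) of C4b, Cfb, C2 and their neighbours in chromosomal order (not to scale), day 1 (circles) and day 3 (squares) against control; open symbols are C4a and C2, fitted at the lower minimum. C4b stands at -1.58 on day 1, while the 8 tested neighbours lie between -0.42 and -0.18.

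Genes of signalling routes known to act on complement genes, 31 tested of 37 listed, gave 6 higher and 16 lower on day 1 and 7 higher and 0 lower on day 3 against the controls (4 were lower at an unadjusted limma p under 0.05, and 0 by limma-voom). Together these were 71.0% and 22.6% of the list, beside 62.2% and 13.8% of all genes called. By direction, 31.1% of all genes were higher and 31.1% lower on day 1, and 7.37% higher and 6.45% lower on day 3. Of the C/EBP factors, Cebpd fell from 80.5 ± 6.13 to 46.5 ± 1.52 FPKM on day 1, 1.69-fold (limma adjusted p = 9.3e-07), and Cebpa from 5.01 ± 0.0393 to 3.01 ± 0.129 FPKM, 1.61-fold (limma adjusted p = 2.1e-06). On day 3 they stood at 77.5 ± 4.34 and 5.05 ± 0.248 FPKM, and neither was called against the controls. The cytokine gene Lif rose 3.38-fold on day 1 (limma adjusted p = 2.4e-08) and was still 1.29-fold above the controls on day 3. Tnfaip3, a brake on NF-kappaB, rose 1.88-fold on day 1 (limma adjusted p = 2.4e-05). On day 3 the receptor genes Tgfbr2, Tnfrsf1a and Ifngr2 were 1.18-, 1.15- and 1.11-fold higher than in the controls, each at a limma adjusted p under 0.05. Already on day 1 Tgfbr2 and Ifngr2 had been 1.21- and 1.44-fold higher, while Tnfrsf1a had been 1.05-fold lower, each at the same threshold. No link of any of these to the complement genes was tested.

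Over the 9 libraries, the genes outside the complement lists whose log2 levels followed each member most closely were named by Pearson's r, as a description of points that fall into 3 groups. C3 was followed by Bcr, Slco1a4 and Sfrp1 (r of 0.998, 0.997 and 0.997). Slco1a4, Cnp and Agpat3 followed C4b (0.998, 0.998 and 0.997), and Galnt15, Clcn2 and Iqsec2 followed Serping1 (0.998, 0.998 and 0.997). The nearest to C1ra were Dnajb2, Nkain2 and Gm2a (0.992, 0.991 and 0.989), and those to C3ar1 were Msr1, Trf and Stxbp2 (0.990, 0.989 and 0.988). Cd55 had Hmgcll1, Exoc2 and Rassf5 (0.977, 0.966 and 0.964), Cd59a had Cyth3, Thoc7 and Nup107 (0.942, 0.934 and 0.933), and Cfb had Ptcd1, Camkk2 and Smkr-ps (0.956, 0.955 and 0.944). Among the members, C3, C4b and Serping1 ran together with r of 0.994 to 0.997. C1ra and C3ar1 ran with these 3 at 0.941 to 0.982, and Cfb at 0.665 to 0.709. Cd55 and Cd59a ran against C3 at -0.74 and -0.72.

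Markers of cell types moved in the same comparisons, and the counts of markers called stand beside 62.2% of all genes on day 1 (31.1% lower) and 13.8% on day 3. Astrocyte markers were present in all libraries and summed to 2772 to 2841 FPKM in the controls, 2049 to 2312 on day 1 and 2546 to 2581 on day 3, with 6 of 9 called lower and 2 higher on day 1 and 3 lower on day 3. Microglial markers summed to 231 to 255 FPKM in the controls, 121 to 134 on day 1 and 206 to 254 on day 3. Of the 12 tested, 11 were lower on day 1 with a list median of -1.24, Tmem119 was higher, and 0 were called on day 3 against the controls (1 was lower at an unadjusted limma p under 0.05, and 0 by limma-voom). P2ry12 was under 1 FPKM in every library and none was at 0 throughout. Oligodendrocyte-lineage markers summed to 638 to 669, 415 to 451 and 546 to 577 FPKM (9 of 9 lower on day 1, 7 on day 3), and fibroblast markers to 206 to 212, 182 to 184 and 234 to 245 FPKM (3 lower and 2 higher of 6 on day 1, 5 higher on day 3). Abundant genes weigh most in these sums. In the control means, Gfap had 1493 of the 2795 FPKM of the astrocyte markers and Olig1 348 of the 652 FPKM of the oligodendrocyte lineage. All 4 ependymal markers tested were lower on day 1, and most endothelial and neuronal markers were under 1 FPKM. The list medians on day 1 were -1.51 for the oligodendrocyte lineage, -0.81 for ependymal, -0.43 for astrocyte and -0.03 for fibroblast markers (log2).

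Levels were also set against Csf1r, a receptor gene of microglia and one of the markers. C3ar1 was at 0.365 ± 0.0286 of the level of Csf1r in the controls, at 0.515 ± 0.0247 on day 1 and at 0.429 ± 0.0019 on day 3, so on day 1 C3ar1 was reduced less than Csf1r. C3 was at 5.06 ± 0.333 times Csf1r in the controls, 1.89 ± 0.188 on day 1 and 4.51 ± 0.509 on day 3, a larger reduction than that of Csf1r. C4b, at 4.86 ± 0.0590, 4.01 ± 0.230 and 4.55 ± 0.439 times Csf1r, and Serping1, at 2.05 ± 0.0477, 1.67 ± 0.0727 and 2.16 ± 0.246, were reduced slightly more than Csf1r on day 1. C1ra, at 0.382 ± 0.0219, 0.594 ± 0.0230 and 0.413 ± 0.0579, was reduced less. Against Slc1a3, the glutamate transporter of astrocytes, C3 was at 0.293 ± 0.0214 in the controls, 0.0731 ± 0.0063 on day 1 and 0.285 ± 0.0212 on day 3. C4b was at 0.281 ± 0.0025, 0.155 ± 0.0025 and 0.288 ± 0.0027 of Slc1a3, and Serping1 at 0.119 ± 0.0039, 0.0647 ± 0.0029 and 0.137 ± 0.0013. In these 3 ratios the day 1 libraries lay below all the others. Slc1a3 was itself 1.65-fold lower on day 1 and among the 6 of 9 astrocyte markers called lower. Of the same list, Aqp4 and Aldh1l1 were called 1.12- and 1.26-fold higher and Gja1 was not called. Ratios to those markers were not taken. The part of any cell type in the levels of the 9 genes was not tested.

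**Figure D5:**
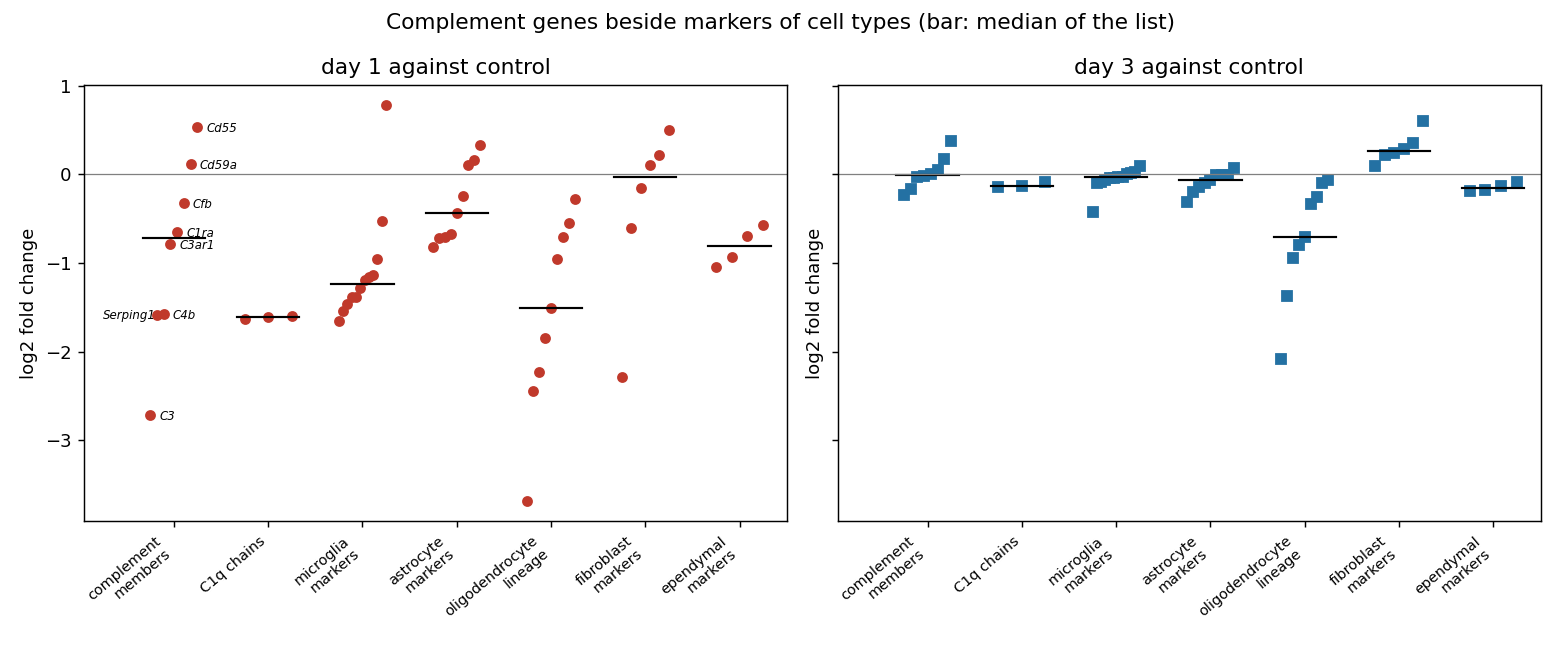
Log2 fold change (vertical axis) of the 8 tested complement genes, of the C1q chains and of the markers of 5 cell types, day 1 (left) and day 3 (right) against control; each point is a gene and the bar is the median of its list. On day 1 the median of the microglial markers is at -1.24 and that of the oligodendrocyte lineage at -1.51. Of the microglial markers Tmem119 alone is above 0, and C3 lies below all 12 of them. On day 3 the medians of the complement genes and of the microglial markers are near 0, and that of the oligodendrocyte lineage is at -0.71.

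The libraries held 23032594 to 38414668 reads, fewest on day 1 (23032594 to 27850348). The ribosomal precursor Rn45s took 9.41% to 11.9% of reads in the controls, 7.67% to 9.36% on day 1 and 9.15% to 11.1% on day 3, so control and day 1 libraries did not overlap in this share. Without control replicate 1 and day 3 replicate 2, which had the most of it in their groups, a choice made after the data were seen, Cd55 was not called on day 3 and C3, C4b, C1ra, Serping1 and C3ar1 were still called on day 1. The part of this share in the results was not tested.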

How the data were processed

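Polyadenylated RNA from 9 libraries, 3 per group, was sequenced, per the labels. The deposited values are FPKM, computed by the authors for each library; the submitters' processing notes name STAR 2.7.3a, cutadapt 2.6, FastQC 0.12.1 and DESeq2, and the builds GRCm38 and mm10. The sources used here do not give the counting program, annotation, strand handling or filters. Each column was matched to its library by the name in that library's description.

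Whole reads were recovered from the FPKM for all 20350 genes above 0 (to within 0.01 read), so depth is known. For tests, FPKM were divided by median-of-ratios factors (0.975 to 1.02), taken as log2(FPKM + 0.1), limited to the 12611 genes that averaged 1 FPKM or more, and fitted over all 9 libraries with a term for group alone (limma 3.58.1, trended variance, R 4.3.3). Tests were two-sided, calls needed a p under 0.05 after Benjamini-Hochberg adjustment over all genes tested, and intervals are 95%. The fit was tested on simulated data in which all genes shared the same small spread and few were changed. That setting differs from these data, so the test does not bear on the calls made here. Printed levels are the deposited FPKM with SD over 3 libraries; folds come from the rescaled log2 values and understate changes of low genes. P-values rest on the spread between libraries of a group, which may be technical.

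The members, the gene lists, the tests and the rule for naming genes were chosen with earlier results of these data known. The rule named all members, the other complement genes that averaged 1 FPKM or more, the copies of members, up to 4 called genes with the largest difference of the signalling list on each day, the neighbours of C4b, Cfb and C2, the 3 genes most like each member, and markers where a result turns on them; 1 further complement gene was left out and is not reported here. Coordinates and promoters are RefSeq's for GRCm38.p6. As alternatives, each library was left out in turn, the replicate number was added as a block, limma-voom was run on the recovered reads, and the scaling, pseudocount, filter, threshold and number of libraries fitted were varied. Figures were drawn with matplotlib 3.10.9.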

Additional observations from a re-analysis of the deposited data

Results flagged for a closer look

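The limma comparison of day 3 with day 1, which shares its libraries with the other comparisons, called 56.2% of all genes at an adjusted p under 0.05. It called 19 of the 20 other complement genes tested, whose differences from the controls were thus not the same on both days. Their lists, too, were chosen with earlier results of these data known. Of the 8 complement members fitted, 6 were past the same threshold. On the log2 scale, day 3 minus day 1, the gap was 2.48 for C3, 1.60 for Serping1, 1.41 for C4b, 0.96 for C3ar1, 0.69 for C1ra and -0.14 for Cd59a. These 6 were chosen with their group levels known, so neither their number nor their gaps carry a test.

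Among the other genes, the largest positive gaps were 1.59 for Vtn, 1.51 for C1qb, 1.48 for C1qc, 1.48 for C1qa and 1.12 for C5ar1. Smaller ones were 0.98 for Itgam, 0.96 for Itgb2, 0.81 for Clu, 0.69 for C1s1, 0.68 for Cfp, 0.47 for Colec12, 0.42 for Hc, 0.37 for Csmd1, 0.33 for C8g and 0.26 for Csmd2. Gaps below 0 were -0.94 for Masp1, -0.33 for Cr1l, -0.24 for Susd4 and -0.18 for C1qbp.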

How the results depend on the processing

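Of 129 results for named genes, 89 kept their call and direction under all 19 alternatives, among them 13 of the 24 of the complement members. The day 1 counts held: leaving out 1 library gave 6 to 8 members called on day 1 and 17 to 18 of the other complement genes, and 5 to 6 and 17 to 19 between the days. On day 3 against control the members' count of 1, which is Cd55, became 0 with no filter, with no rescaling, at an adjusted p under 0.01 and on leaving out 1 library (range 0 to 1), 2 with the replicate block and 3 with limma-voom on recovered reads; C3 and C4b, both lower, were the genes called with the block, where Cd55 was not, and they joined Cd55 with limma-voom. With only the 6 libraries compared the count was again 1, but the gene was C4b, lower, in place of Cd55; without day 1 replicate 3 it was C4b as well. The count of 2 for the other complement genes became 4 with only the 6 libraries compared, 6 with limma-voom, and 2 to 4 on leaving out 1 library (4 without day 1 replicate 3). Cfb was called lower on day 1 with no rescaling, with limma-voom, and without control replicate 3 or day 1 replicate 3, and Cd59a higher on day 1 with the replicate block and without control replicate 3. Without day 1 replicate 3 Cfb was also called higher on day 3 than on day 1. Over all genes tested, deviations from the group mean correlated at -0.079 to 0.11 between same-numbered libraries and at -0.15 to 0.15 between the others. No pairing by replicate number was seen, but these values cannot exclude a weak one or one limited to some genes.

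Directions turned only on day 3 against control and only for genes not called there, all log2 values. Quantile normalization gave 0.036 for Cfb, -0.0034 for Serping1 and 0.0023 for Fkbpl, and no rescaling gave -0.0089 for Serping1 and -0.0056 for Itgb2. Limma-voom gave -0.0024 for Itgb2, 0.0044 for Fkbpl and 0.0017 for Stk19. Fkbpl was at 0.00013 with a pseudocount of 1, 0.0021 with no filter and 0.0017 at a minimum of 0.3 FPKM. Leaving out 1 library, or control replicate 1 and day 3 replicate 2 together (chosen after the data were seen), gave -0.11 to 0.047 for Cfb, -0.028 to 0.081 for C1ra, -0.036 to 0.041 for Serping1, -0.077 to 0.018 for Cd59a, -0.17 to 0.015 for C1qb, -0.25 to 0.021 for C1qc, -0.0021 to 0.20 for Cfp, -0.082 to 0.14 for Itgb2, -0.088 to 0.029 for C1qbp, -0.081 to 0.055 for Fkbpl, -0.072 to 0.029 for Stk19 and -0.076 to 0.020 for Cebpd. The causes were not tested. The fewest reads in a library stood behind C2 (40 to 78), Cfb (69 to 192) and Cd55 (86 to 151).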
